A study of Sus scrofa with 2 samples.

Results

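The matrix metalloproteinases (MMP), the ADAM and ADAMTS proteases and their inhibitors, the TIMPs, were followed across the cell classes of the piglet olfactory mucosa, in 1 CFTR knockout and 1 wild type library of single nuclei. The members are all genes of the count tables whose symbol begins with MMP and a digit, ADAM and a digit, ADAMTS, or TIMP and a digit, with at least 20 UMIs summed over both tables. A UMI is a molecular tag that lets each captured transcript be counted once. Of 25880 listed genes 68 had such a symbol and 60 of these reached 20 UMIs, against 16259 of all genes. They are 17 MMP, 16 ADAM, 23 ADAMTS (of which 4 are ADAMTSL genes) and 4 TIMP genes. ADAMTS4 lay just inside the minimum with 20 UMIs, and MMP27 with 15 and ADAMTSL2 with 14 lay just outside it. ADAM8 (5 UMIs), ADAM20 (4), ADAM21 (1) and MMP12 (7) were also under it, and ADAM29 and ADAM30 had 0 UMIs.

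Olfactory neuroepithelium was taken from a newborn CFTR knockout piglet and a newborn wild type piglet (Sus scrofa), frozen, sectioned and ground to release the nuclei. CFTR is the anion channel whose loss causes cystic fibrosis. Neither piglet's sex, breed or litter, nor the design of the CFTR allele, is given in the sources used here. With 1 library per genotype there is no replicate check: no difference was tested, every interval covers counting error only, and each ratio compares these libraries and not the genotypes.

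MMPs are zinc proteases that cut collagens, proteoglycans and other proteins of the extracellular matrix. Most are secreted as inactive precursors, and the membrane-type MMPs, among them MMP14, MMP15, MMP16 and MMP24, stay on the cell surface. ADAMs are membrane proteins, some of which shed the outer parts of receptors and growth factors (ADAM10, ADAM17), while ADAM11, ADAM22 and ADAM23 have no protease activity and bind LGI proteins. ADAMTS proteases are secreted and cut versican, aggrecan, procollagens or fibrillin-associated proteins. The ADAMTSL proteins resemble them without the protease domain, and TIMPs block the active site of MMPs and of some ADAM and ADAMTS proteases. In the olfactory mucosa neurons are replaced throughout life and their axons grow through the connective tissue beneath the epithelium, which places matrix turnover beside neurogenesis.

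After filtering, the knockout library held 5761 nuclei (median 2093 UMIs, 15125185 in all) and the wild type library 4536 nuclei (median 2966 UMIs, 17128569 in all). CFTR itself had 192 UMIs in the knockout library and 1523 in that of the wild type (log2 ratio -2.81, 95% interval -3.03 to -2.59), which fits the labels. The 2 libraries shared 8 cell barcodes. Their makeup differed: respiratory ciliated-like and respiratory secretory-like nuclei numbered 465 and 447 in the knockout library, against 32 and 49 in the wild type library. Cluster 14, shallow and unnamed, held 958 knockout and 26 wild type nuclei, and immature neuron-like nuclei numbered 539 and 823. Ratios over all nuclei therefore mix makeup with level, and ratios within a class are given beside them. Nuclei were clustered without the member genes, so that the levels below played no part in forming the classes. Levels are CPM: the UMIs of a gene were divided by those of every gene in the nuclei named and multiplied by 1e6. They are not corrected for transcript length, so they are compared between classes and libraries but not between genes.

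Most members had their highest level in stroma, vessels or glia. Taken as 6 classes, a grouping made after the values were seen, these led 45 of the 60 members, against 44.9% of all genes with at least 20 UMIs. Of the 23 members whose leading interval lay above that of the second class 18 peaked there, against 30.3% of 3657 such genes. Over both libraries 9 of the 60 had their highest level among named classes in fibroblast-like nuclei, 10 in lymphatic endothelial-like, 8 in endothelial-like, 7 in glia-like (olfactory ensheathing or Schwann), 7 in pericyte-like and 4 in cartilage-like nuclei. The lead was clear of the second class for 6, 4, 3, 2, 1 and 2 of these members in the same order of classes, and the pericyte leads of ADAMTS4, MMP19 and ADAM11 rest on 1 UMI each. Epithelial and neuronal classes led few: 4 members in sustentacular-like nuclei, the supporting cells of the olfactory epithelium, 3 in mature neuron-like, 1 in immature neuron-like, 1 in gland-like, 1 in horizontal basal-like (MMP8), 1 in respiratory ciliated-like (TIMP4) and 2 in respiratory secretory-like nuclei, with 2 more in macrophage-like nuclei. In all, 29 of 60 had the same leading class in both libraries (25 of the 43 members with at least 100 UMIs). Cluster 18, an unnamed cluster in which fibroblast and cartilage markers tied, held the highest level of 8 members when unnamed clusters were counted too, among them MMP2, MMP11, ADAMTSL1, ADAMTS6, ADAMTS10 and TIMP2.

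**Figure D1:**
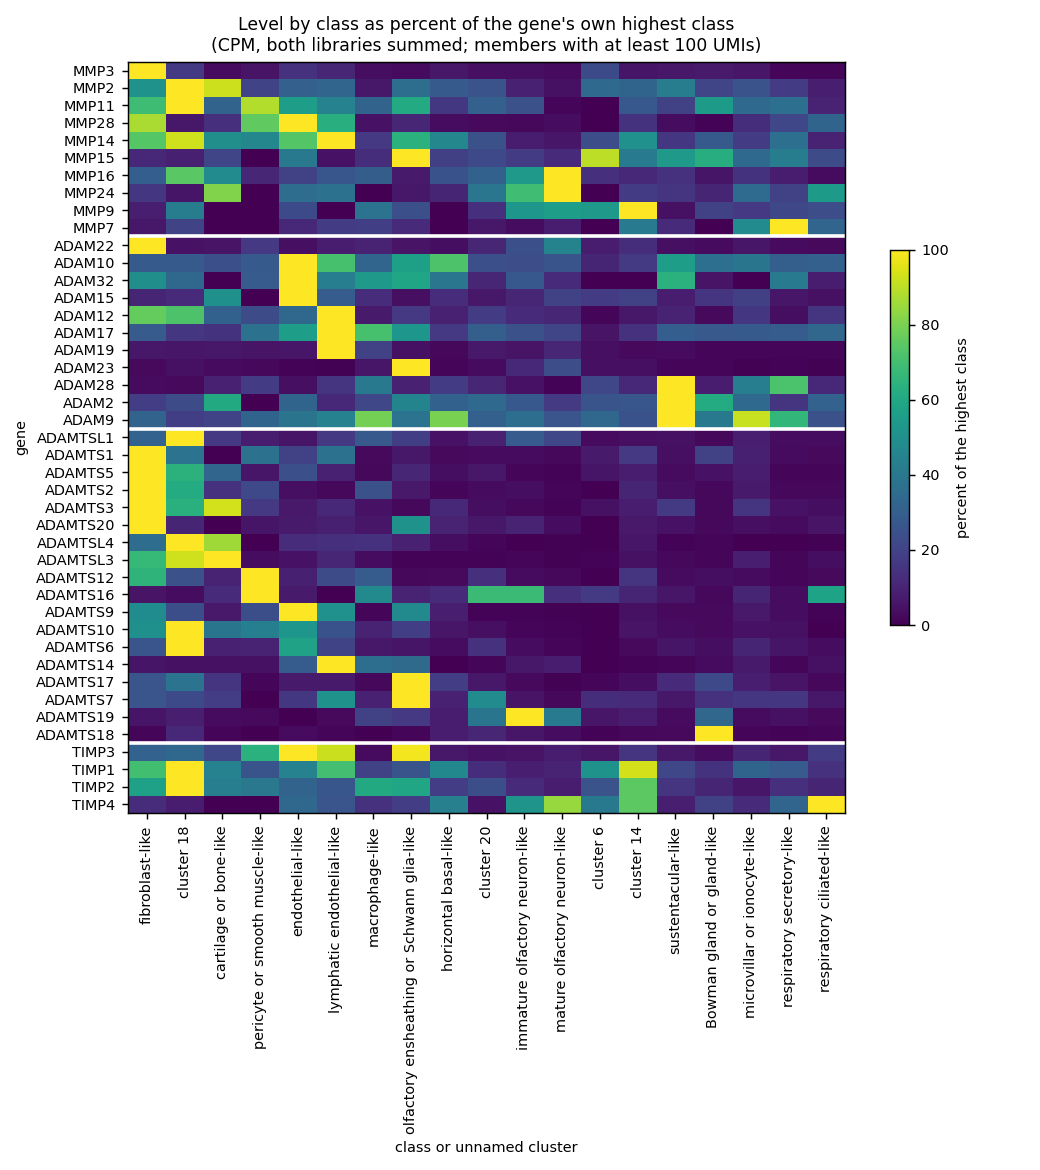
Level of each member with at least 100 UMIs (rows, grouped as MMP, ADAM, ADAMTS and TIMP) in each class or unnamed cluster (columns), as a percent of that gene's own highest class, from CPM over both libraries summed. Yellow marks the highest class of a gene: MMP3 peaks in fibroblast-like, MMP16 in mature neuron-like, ADAM23 in glia-like and ADAMTS18 in gland-like nuclei.

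Of the members, 9 were led by at least 4 times over the second class. ADAMTS18, a protease with few known substrates, had 565 CPM in gland-like nuclei, 12.9 times the level in the next class, horizontal basal-like nuclei. MMP23B, a membrane-anchored MMP, had 62.8 CPM in lymphatic endothelial-like nuclei (18 UMIs), 14.2 times its level in endothelial-like nuclei. ADAM7, known as an epididymal protein without protease activity, had 140 CPM in pericyte-like nuclei, from 20 UMIs, 15.8 times the next class. The same pericyte class led both in the knockout library (12 UMIs, 151 CPM) and in the wild type library (8 UMIs, 125 CPM). ADAM19, which sheds neuregulin, and ADAMTS15, a versican protease, peaked with MMP23B in lymphatic endothelial-like nuclei at 5.16 and 5.42 times the second class. ADAM23 was led by glia-like nuclei, MMP3 by fibroblast-like nuclei, ADAMTS2 likewise (159 CPM, against 97.7 CPM in unnamed cluster 18, which was left out of this count) and MMP13, the collagenase of cartilage and bone, by cartilage-like nuclei, where all 6 of its UMIs came from the wild type library, which holds 4 such nuclei.

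Over all nuclei few members passed 2-fold. The knockout library had 4 members at least 2-fold higher, 6.67% of the 60, where 6.96% of all genes with at least 20 UMIs lay as far, and 3 members at least 2-fold lower, 5.00%, where 3.14% of all genes did. The median log2 ratio was -0.11 over the members and 0.10 over all genes tested, with 36 members below 0 (60.0%, against 40.1% of all genes) and 24 above. The interval lay below 0 for 23 members (38.3%, against 20.1% of all genes), above 0 for 7 (11.7%, against 35.8%) and included 0 for 30. By family the median was 0.18 for the MMPs, -0.10 for the ADAMs, -0.27 for the ADAMTS genes and 0.09 for the TIMPs, which turned to -0.01 when the libraries were scaled by TMM factors instead of their totals.

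**Figure D2:**
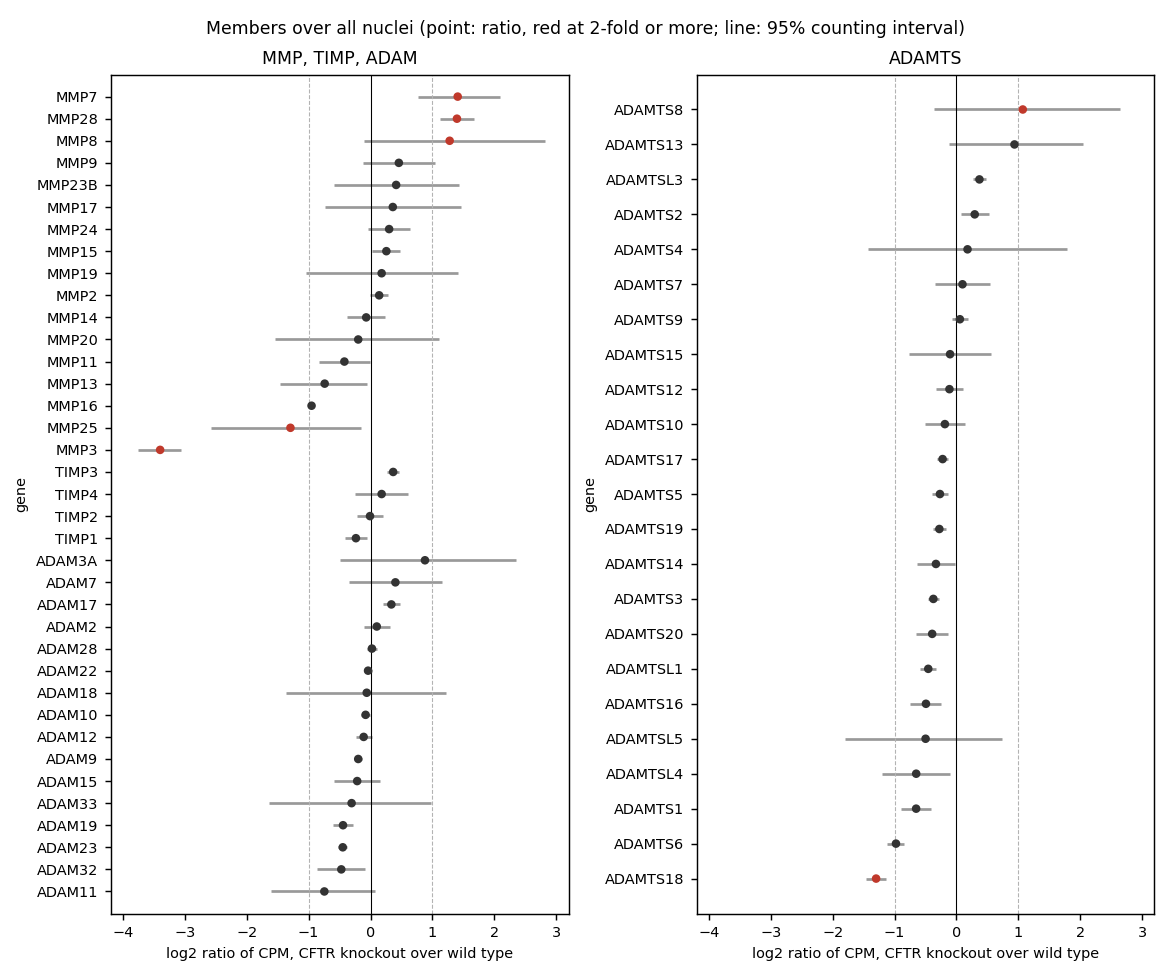
Log2 ratio of CPM over all nuclei, CFTR knockout over wild type, for each of the 60 members (points) with the 95% counting interval (lines). Red points lie at or beyond 2-fold in either direction: MMP3 stands at -3.40, and no other member goes beyond 1.41 in size.

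MMP3 was the member that differed most. MMP3, stromelysin-1, is a secreted protease of connective tissue that cuts proteoglycans and several collagens and activates other MMPs. It had 78 UMIs in 51 nuclei of the knockout library, against 933 UMIs in 372 nuclei of the wild type library, which is 5.16 against 54.5 CPM and a log2 ratio of -3.40 (-3.75 to -3.07). Fibroblast-like nuclei carried 42.3% of the knockout UMIs and 63.9% of the wild type UMIs of MMP3, from 8.05% and 6.83% of all UMIs. Fibroblast-like nuclei numbered 645 in the knockout library and 500 in that of the wild type.

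In fibroblast-like nuclei MMP3 had 33 UMIs (27.1 CPM) in the knockout library, against 596 UMIs (509 CPM) in the wild type library (log2 ratio -4.23, -4.78 to -3.73). At least 1 MMP3 UMI was found in 11 of 645 knockout nuclei (1.71%, Clopper-Pearson 95% interval 0.854 to 3.03), against 129 of 500 wild type nuclei (25.8%, 22.0 to 29.9). Thinned to 1000 UMIs each, 9 of 517 knockout nuclei (1.74%, 0.799 to 3.28) and 81 of 452 wild type nuclei (17.9%, 14.5 to 21.8) kept one. The share thus differed at equal depth, and median depths were 1659 UMIs in knockout and 2061 UMIs in wild type fibroblast-like nuclei. Wild type expression was uneven: 51 of the 129 nuclei held a single UMI, 36 held 5 or more, and the highest held 34. In the knockout library the 10 highest nuclei held 97.0% of the fibroblast-like UMIs of MMP3, the highest of them 11.

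The difference was not confined to fibroblast-like nuclei. Outside them MMP3 had 45 UMIs (3.24 CPM) in the knockout library and 337 UMIs (21.1 CPM) in that of the wild type (log2 ratio -2.71, -3.19 to -2.25). Mature neuron-like nuclei had 5 UMIs (1.71 CPM) in the knockout library and 49 UMIs (12.3 CPM) in that of the wild type (log2 ratio -2.84), and immature neuron-like nuclei 2 and 63 UMIs. These were nearly all single UMIs per nucleus: 47 of 48 wild type mature neuron-like nuclei with MMP3 held 1. After thinning, 0.335% of knockout and 0.987% of wild type mature neuron-like nuclei kept a UMI (median depths 2857 and 3787 before thinning). Free RNA as the source of these UMIs was not tested. The wild type share in fibroblast-like nuclei, 17.9%, lay above that of mature neuron-like nuclei. It also lay above thinned wild type shares of 5.00% in gland-like nuclei, 5.35% in cluster 18 and 2.25% in sustentacular-like nuclei. Knockout shares there were 0%, 0.763% and 0.546%. In pericyte-like nuclei 2 of 27 wild type nuclei (7.41%) kept a UMI, against 0 of 35 knockout nuclei. Some small classes stood the other way. Horizontal basal-like nuclei kept a UMI in 2 of 35 knockout (5.71%) and 3 of 102 wild type nuclei (2.94%). Respiratory ciliated-like nuclei kept one in 3 of 463 knockout and 0 of 32 wild type nuclei. The knockout fibroblast-like share of 1.74% had a lower bound of 0.799%, against an upper bound of 0.976% in knockout mature neuron-like nuclei. Sustentacular-like nuclei had 4 and 75 UMIs (2.38 and 25.6 CPM, log2 ratio -3.43), of which 15 wild type UMIs came from 1 nucleus, and endothelial-like nuclei had 2 and 15. Cluster 18 had 4 UMIs (13.1 CPM) in the knockout library and 40 (60.0 CPM) in that of the wild type (log2 ratio -2.20, -4.14 to -0.73).

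**Figure D3:**
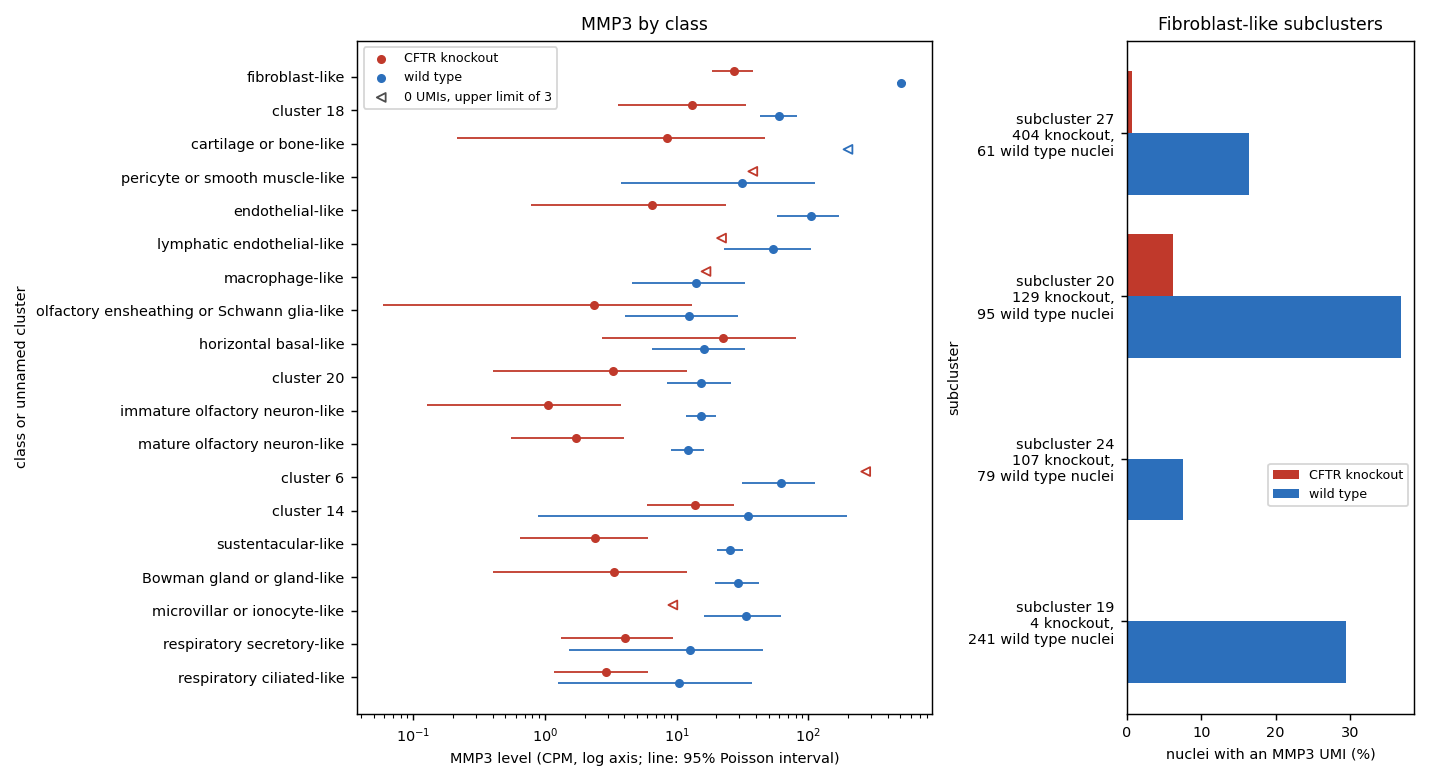
Left, MMP3 level (CPM, log axis) by class in the CFTR knockout (red) and wild type (blue) library, with 95% Poisson intervals and open triangles at the limit of 3 UMIs where none was found. Right, percent of nuclei with an MMP3 UMI in the fibroblast-like subclusters with at least 4 nuclei in each library, where the wild type bars reach 36.8% and the knockout bars 6.20%.

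A finer clustering, looked at after these values were seen, split the fibroblast-like nuclei unevenly between the libraries. Subcluster 19 held 4 knockout and 241 wild type nuclei, with 0 and 382 MMP3 UMIs, and subcluster 27 held 404 and 61 nuclei, with 4 and 48 MMP3 UMIs. A subcluster mostly of 1 library may be that library and not a cell type. Subcluster 20 held 129 knockout and 95 wild type nuclei, and within it MMP3 had 29 UMIs (120 CPM) in the knockout library and 141 UMIs (682 CPM) in that of the wild type (log2 ratio -2.51, -3.14 to -1.92). Within subcluster 27 the level was 4.75 CPM in knockout and 289 CPM in wild type nuclei (-5.93, -7.86 to -4.48). Subcluster 24, with 107 and 79 nuclei, had 0 and 10 UMIs. MMP3 was thus lower in the knockout library in both subclusters in which each library held MMP3 UMIs and over 50 nuclei.

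Among the 500 wild type fibroblast-like nuclei, the 129 with an MMP3 UMI were about as deep as the other 371 (median 2200 and 1974 UMIs). Of the 129, 71 lay in subcluster 19 and 35 in subcluster 20, so the split also compares subclusters. Their part in the differences below was not tested. The aggrecanase ADAMTS1 was higher in those with MMP3 (301 against 147 CPM, log2 1.04, 0.65 to 1.43), as was ADAMTS3 (1162 against 827 CPM, log2 0.49). ADAMTS9 and ADAMTSL3 were lower there, at 212 against 460 CPM (log2 -1.12) and 365 against 737 CPM (log2 -1.01), and ADAM12 had a log2 ratio of -0.91. Of 29 members with at least 20 UMIs in these nuclei 3 were higher and 5 lower in nuclei with MMP3, with intervals clear of 0. Of 43 genes of the other lists 6 were higher and 5 lower, with a median log2 ratio of -0.13. Of 11 fibroblast markers 1 was higher and 4 were lower, with a median of -0.18. No share over all genes is given for this split, so these counts have no background beside them. Among the higher ones were the adhesive glycoprotein THBS1 (574 against 269 CPM), the protease inhibitor A2M (97.5 against 19.7 CPM) and ABI3BP, a matrix protein and fibroblast marker (571 against 136 CPM). In fibroblast-like nuclei as a whole, these 3 were lower in the knockout library, at log2 ratios of -2.13, -2.41 and -1.56. THBS1, A2M and ABI3BP were named after their values were seen. NRG1, FAP, IL1R1 and COL4A2, also higher in nuclei with MMP3, stood at 0.28, -0.08, 0.11 and -0.08. The list genes lower in nuclei with MMP3, COL1A1, PCSK5, BMP1, ELN and CTSB, stood at -0.83, -0.86, -0.37, -0.03 and -0.53. The fibroblast marker list, 11 of 11 genes listed, summed to 7252 CPM in knockout and 8415 CPM in wild type fibroblast-like nuclei, while markers of respiratory secretory cells (8 of 10 listed) summed to 1360 and 154 CPM there, and their part in the MMP3 difference was not tested.

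Other members of the fibroblast-like nuclei differed less. Of 28 members with at least 50 UMIs in that class, 2 were at least 2-fold lower in the knockout library, 7.14% against 3.17% of all genes, and 2 were at least 2-fold higher, 7.14% against 4.54%. TIMP1, a secreted inhibitor of most MMPs, was the other low member, with 65 UMIs (53.4 CPM) in knockout and 160 UMIs (137 CPM) in wild type nuclei, a log2 ratio of -1.36 (-1.80 to -0.93), and it was also lower in cluster 18 (71.9 against 164 CPM). ADAMTSL1 was higher at 157 against 65.8 CPM (1.25, 0.86 to 1.65), but not when each library was clustered separately (-0.083). ADAM28 was higher at 29.5 against 13.7 CPM (1.11). ADAM22, the highest-count ADAM, had 1229 and 964 CPM (0.35, 0.24 to 0.46), and the aggrecanase ADAMTS5 439 and 483 CPM (-0.14, -0.31 to 0.04). The calls thus went both ways, and MMP2 (103 and 104 CPM), MMP14 (34.5 and 32.5 CPM) and TIMP2 (60.7 and 58.9 CPM), which act together in MMP2 activation, lay at nearly equal levels.

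MMP16, a membrane-type MMP, was the member with the most UMIs and was a neuronal gene here. It had 5601 UMIs (370 CPM) in the knockout library and 12282 UMIs (717 CPM) in that of the wild type (log2 ratio -0.95, -0.999 to -0.908), just short of 2-fold. Its level was higher at each later stage of the neuronal lineage in both libraries: cluster 20, in which precursor markers lead but which stays unnamed, had 203 CPM in knockout and 533 CPM in wild type nuclei, immature neuron-like nuclei 548 and 777 CPM, and mature neuron-like nuclei 987 and 1529 CPM. The corresponding log2 ratios were -1.39 (-1.69 to -1.10), -0.50 (-0.61 to -0.40) and -0.63 (-0.70 to -0.57). The mature class joins 2 clusters that the libraries fill unequally, cluster 7 with 83 knockout and 791 wild type nuclei and cluster 11 with 847 and 146. Within cluster 7 MMP16 had 1424 and 1544 CPM (-0.12, -0.24 to 0.01), and within cluster 11 917 and 1396 CPM (-0.61, -0.74 to -0.47). NCAM2, an adhesion molecule that in mice marks neurons of the ventral zone and was looked at after the clusters were seen, had 544 and 897 CPM in cluster 7 and 180 and 304 CPM in cluster 11. MMP16 was also lower in gland-like nuclei (12 against 103 UMIs, -2.43) and macrophage-like nuclei (29 against 176 UMIs, -1.62). In wild type macrophage-like nuclei the immature neuron markers, 10 of 10 listed, summed to 2487 CPM, against 935 CPM in knockout ones, and their part in the macrophage difference was not tested.

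Other members marked the neuronal lineage too. ADAMTS19, an ADAMTS protease with few known substrates, peaked in immature neuron-like nuclei, with 312 CPM in knockout and 244 CPM in wild type nuclei (0.35, 0.21 to 0.50), and had 141 and 87.0 CPM in mature neuron-like nuclei (0.69, 0.48 to 0.90). Over all nuclei the sign was the other way, at 80.1 and 97.0 CPM (-0.28), in libraries that differ in their share of immature neuron-like nuclei. Of 26 members compared in mature neuron-like nuclei 3 were at least 2-fold lower, 11.5% against 2.07% of all genes: MMP3, ADAMTS14 (17 against 70 UMIs, -1.59), a procollagen protease, and ADAMTS16 (5 against 55 UMIs, -3.01). TIMP3 (88.3 against 39.6 CPM, 1.16) and MMP2 (14.4 against 5.76 CPM, 1.32) were at least 2-fold higher there, 7.69% of 26 against 3.30% of all genes. The mature class joins clusters that the libraries fill unequally, as described above. The part of this makeup in the mature class ratios of ADAMTS19, MMP3, ADAMTS14, ADAMTS16, TIMP3 and MMP2 was not tested. In immature neuron-like nuclei 3 of 27 members were at least 2-fold lower, 11.1% against 3.99%: MMP3, ADAMTS3 (16 against 101 UMIs, a direction that turned at a finer clustering, to 0.050) and ADAMTS6 (19 against 112 UMIs). None was 2-fold higher, against 2.13% of all genes.

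**Figure D4:**
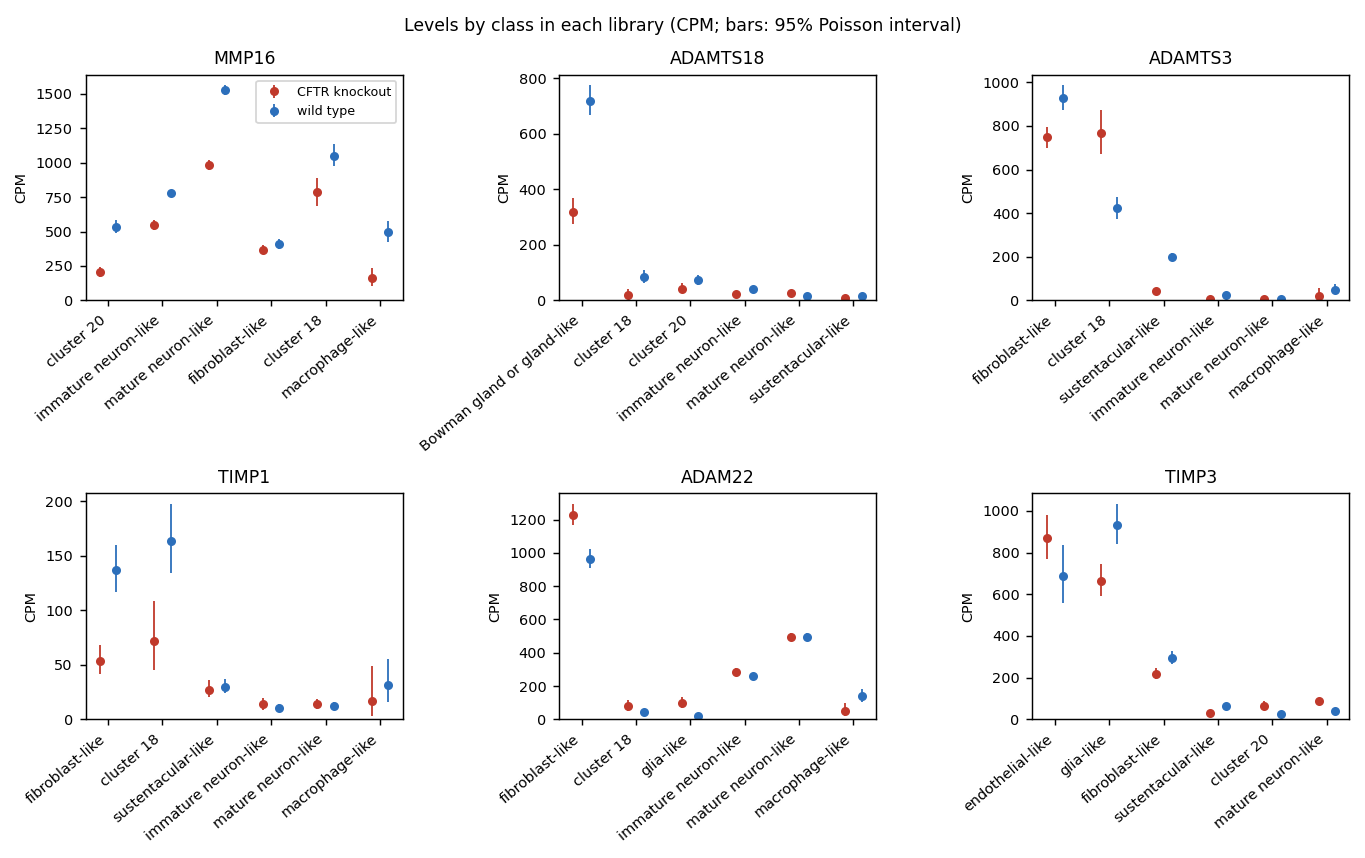
Levels (CPM) of 6 members in 6 classes each, CFTR knockout (red, left) and wild type (blue, right), with 95% Poisson intervals. MMP16 is lower in the knockout library at each neuronal stage taken as a whole, though the mature class joins clusters that the libraries fill unequally. ADAMTS18 is lower in gland-like nuclei (319 against 718 CPM) and ADAMTS3 in sustentacular-like nuclei (41.6 against 199 CPM), while ADAM22 in mature neuron-like nuclei lies at 493 and 494 CPM.

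In the sustentacular-like nuclei the members leaned lower in the knockout library. There 7 of 25 members were at least 2-fold lower, 28.0% against 3.64% of all genes, and none was 2-fold higher, against 2.89%. The median log2 ratio was -0.64 over the members and 0.09 over all genes compared. ADAMTS3, which cuts procollagen and activates the lymphatic growth factor VEGFC, had 70 UMIs (41.6 CPM) in knockout and 583 UMIs (199 CPM) in wild type nuclei, a log2 ratio of -2.26 (-2.64 to -1.90). ADAMTS6, which acts on fibrillin microfibrils, had 8 and 157 UMIs (4.75 and 53.6 CPM, -3.50, -4.73 to -2.48). TIMP3 had 48 and 190 UMIs (-1.19, -1.67 to -0.72). The class joins cluster 1 (242 knockout and 630 wild type nuclei) and cluster 3 (332 and 140), and ADAMTS3 was lower in each, at 49.7 against 215 CPM in cluster 1 and 35.5 against 104 CPM in cluster 3. ADAMTS6 and TIMP3 were not shown to be lower in cluster 3, where they had 6 against 5 and 25 against 7 UMIs. ADAMTS5, ADAMTS9 and ADAMTSL3 passed 2-fold with 95 UMIs or fewer each, and their direction turned under other clusterings. MMP3 was the last of the 7, with 4 against 75 UMIs, of which 15 wild type UMIs came from 1 nucleus. ADAM28, the member with the most UMIs in these nuclei, had 720 and 729 CPM (-0.02, -0.12 to 0.08), and ADAM9 440 and 501 CPM (-0.19, -0.32 to -0.06).

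ADAMTS18 was the gland member of the set. Gland-like nuclei had 191 UMIs (319 CPM) in the knockout library and 687 UMIs (718 CPM) in that of the wild type (log2 ratio -1.17, -1.41 to -0.94), and over all nuclei it was -1.30 (-1.47 to -1.13). The class joins cluster 15, with 80 nuclei from each library, and cluster 9, with 156 and 152. Cluster 15 had 575 CPM in knockout and 1270 CPM in wild type nuclei (-1.14, -1.42 to -0.87), and cluster 9 had 154 and 240 CPM (-0.64, -1.12 to -0.17). The level was thus lower in both gland clusters, which were of about equal size in the 2 libraries. Of 12 members compared in gland-like nuclei 3 were at least 2-fold lower, 25.0% against 3.77% of all genes (ADAMTS18, ADAM23 and MMP16), and 1 was higher, 8.33% against 4.05%: ADAM2, known as a sperm surface protein, with 37 against 22 UMIs.

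The glia-like nuclei were marked by ADAM23 and ADAMTS17. ADAM23, an LGI receptor, had 1850 CPM in knockout and 1940 CPM in wild type glia-like nuclei (-0.07, -0.21 to 0.08), and the log2 ratio of -0.45 over all nuclei was not seen in this leading class. ADAMTS17, which acts on fibrillin, had 1187 and 1638 CPM (-0.47, -0.64 to -0.30). Of 14 members compared, 2 were at least 2-fold lower, 14.3% against 2.82% of all genes: the versican protease ADAMTS20 (10 against 41 UMIs, -2.13) and MMP16 (26 against 50 UMIs, -1.04). None was 2-fold higher, against 4.92%. Of the 4 LGI genes, LGI2 was 2-fold higher over all nuclei (92 against 31 UMIs, 1.75), LGI1 had 151 and 108 UMIs (0.66), LGI3 23 and 22, and LGI4 8 and 14.

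Vessels carried ADAM10, ADAMTS9, ADAMTS6 and TIMP3. ADAM10, the main sheddase of Notch receptors, was found in all classes and was highest in endothelial-like nuclei, at 661 CPM in knockout and 513 CPM in wild type nuclei (0.37, -0.03 to 0.77), and over all nuclei it had 204 and 215 CPM (-0.08, -0.15 to -0.01). TIMP3, the matrix-bound inhibitor that also blocks ADAM17, had 869 and 687 CPM in endothelial-like nuclei and 666 and 934 CPM in glia-like nuclei, so that each library had another of these classes above the other. Of 10 members compared in endothelial-like nuclei 2 were at least 2-fold lower, 20.0% against 5.14% of all genes, and none higher, against 7.20%. ADAMTS6 had 254 and 631 CPM (-1.31, -1.77 to -0.86), and ADAMTS5 had 2 UMIs in 124 knockout and 49 UMIs in 52 wild type nuclei (-5.71, -8.79 to -3.78), those of the wild type in 9 nuclei. In these nuclei the fibroblast markers, 11 of 11 listed, summed to 1156 CPM in knockout and 2025 CPM in wild type ones and the cartilage markers, also 11 of 11, to 264 and 950 CPM, and their part in these differences was not tested. In lymphatic endothelial-like nuclei, 62 knockout and 34 wild type, ADAM19 had 128 and 66 UMIs (935 and 441 CPM, 1.09, 0.65 to 1.54), a class too small for the comparison of all genes.

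Of the 4 members 2-fold higher over all nuclei, 2 had intervals clear of 0. MMP28, epilysin of epithelia, had 379 UMIs in the knockout library and 163 in that of the wild type (25.1 and 9.52 CPM, 1.40, 1.13 to 1.67). Its levels were highest in endothelial-like and fibroblast-like nuclei. Of its UMIs, respiratory ciliated-like nuclei gave 92 and 0 UMIs and fibroblast-like nuclei 149 and 82 (122 and 70.0 CPM, 0.80, 0.41 to 1.21). MMP7, matrilysin of glands and airway epithelium, had 68 and 29 UMIs (4.50 and 1.69 CPM, 1.41, 0.76 to 2.09), with 27 and 1 in respiratory secretory-like nuclei, and over the 11 classes and clusters with at least 50 nuclei in each library, weighted equally, the log2 ratio was -0.27. Both respiratory classes are left out of that value. MMP8, the neutrophil collagenase, had 15 and 7 UMIs (1.28, -0.10 to 2.81) and ADAMTS8 13 and 7 UMIs (1.07, -0.36 to 2.64), intervals that include 0. MMP25, the third of the low members, had 9 and 25 UMIs (-1.29, -2.58 to -0.15).

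**Figure D5:**
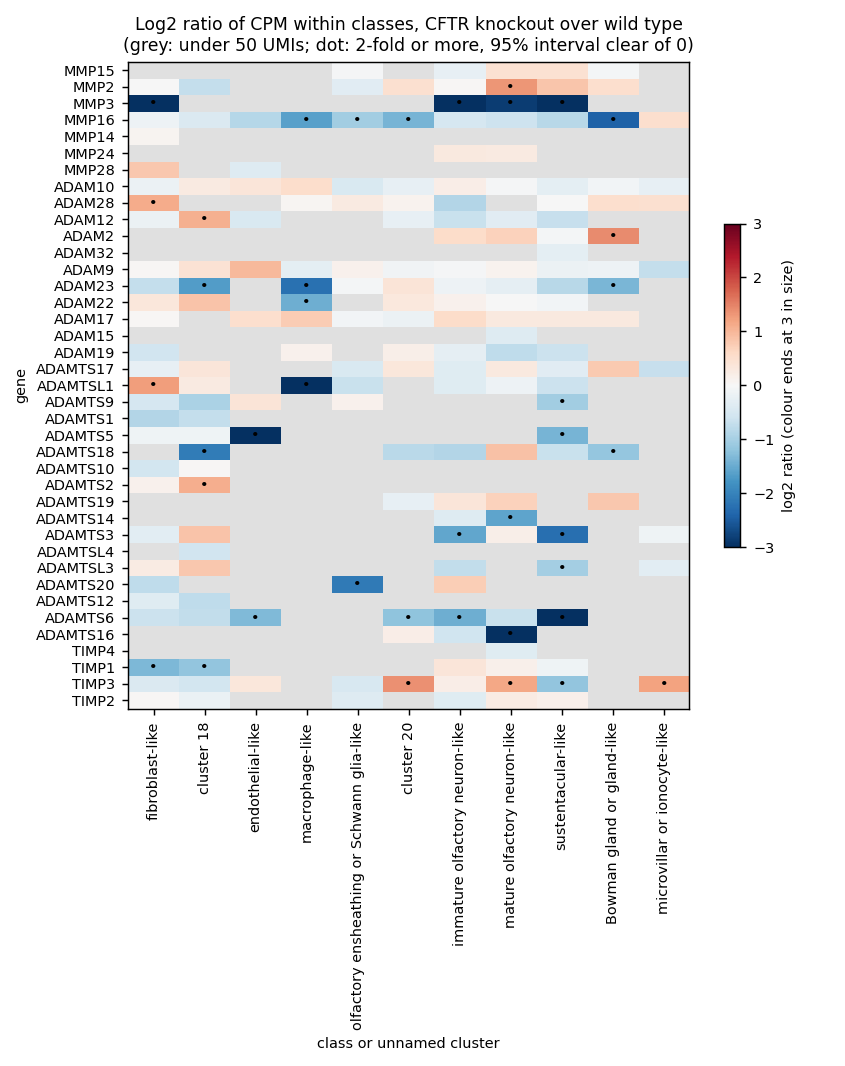
Log2 ratio of CPM within each class or unnamed cluster (columns), CFTR knockout over wild type, for members with at least 50 UMIs in that class (rows); blue is lower and red higher in the knockout library, grey was not compared. Dots mark 31 pairs at least 2-fold lower and 9 at least 2-fold higher, of 198, with intervals clear of 0.

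Across the 11 classes and clusters compared, 198 pairs of a member and a class had at least 50 UMIs. Of these, 31 were at least 2-fold lower and 9 at least 2-fold higher in the knockout library, all with intervals clear of 0. These are 15.7% lower and 4.55% higher pairs, against 3.60% lower and 3.64% higher among 65816 pairs of any gene and class with as many UMIs. At 2-fold and 50 UMIs few intervals can reach 0, so that all were clear of it adds little. The lower pairs came from 16 genes, of which MMP3, ADAMTS6 and MMP16 gave 4 each, so the pairs are not independent. They include ADAMTS5, ADAMTS9 and ADAMTSL3 in sustentacular-like nuclei and ADAMTS3 in immature neuron-like nuclei, whose direction turned under another clustering. Among the higher pairs, that of ADAMTSL1 in fibroblast-like nuclei turned as well. The pairs of MMP3 in the neuronal classes rest on UMIs that were nearly all single in their nucleus, and free RNA as their source was not tested. In cluster 18, ADAMTS18 (6 against 56 UMIs), ADAM23 (10 against 70) and TIMP1 were at least 2-fold lower, 3 of 23 members against 4.33% of all genes. ADAM12 (379 against 182 CPM, 1.06) and ADAMTS2 (154 against 72.0 CPM, 1.09) were 2-fold higher there, 8.70% against 4.13%. In cluster 20, MMP16 and ADAMTS6 were lower, 12.5% of 16 against 1.60%, and TIMP3 was higher, 6.25% against 1.86%. In macrophage-like nuclei 4 of 9 were lower, 44.4% against 12.4% of all genes, and each of the 4 (MMP16, ADAM22, ADAM23 and ADAMTSL1) has its highest level in another class. No member was 2-fold higher there, against 7.59%. Of 8 members compared in microvillar-like nuclei, TIMP3 was 2-fold higher (115 against 50.2 CPM), 12.5% against 3.91% of all genes, and none was 2-fold lower, against 2.48%.

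Over all nuclei the TIMP genes and the broadly found members lay within 2-fold, also those that passed it within a class. TIMP2 had 22.8 and 22.9 CPM over all nuclei (-0.01, -0.22 to 0.20), TIMP4 6.28 and 5.55 CPM (0.18), TIMP1 30.3 and 35.7 CPM (-0.24, -0.41 to -0.06), and TIMP3 135 and 105 CPM (0.37, 0.27 to 0.46). ADAM17, the sheddase of TNF and of EGF receptor ligands, had 65.3 and 51.7 CPM (0.34, 0.20 to 0.47), and MMP15, a membrane-type MMP highest in glia-like nuclei, had 21.8 and 18.3 CPM (0.26). ADAMTSL3 had 114 and 88.4 CPM (0.37, 0.27 to 0.47), with 136 UMIs in knockout and 0 in wild type cartilage-like nuclei, of which there were 55 and 4. The members not described so far (MMP9, MMP17, MMP19, MMP20, MMP24, ADAM3A, ADAM11, ADAM15, ADAM18, ADAM32, ADAM33, ADAMTS4, ADAMTS7, ADAMTS12, ADAMTS13, ADAMTSL4 and ADAMTSL5) had log2 ratios over all nuclei from -0.75 in ADAM11 (20 and 38 UMIs) to 0.94 in ADAMTS13 (22 and 13 UMIs), and none passed 2-fold.

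Genes that work with these proteases were counted from lists over all nuclei, beside the 6.96% of all genes 2-fold higher and 3.14% 2-fold lower. Of 13 matrix substrates tested, COL2A1, cartilage collagen, was higher (587 against 198 UMIs, 1.75), and the thrombospondins THBS1 (583 against 1732 UMIs, -1.39) and THBS2 (145 against 334 UMIs, -1.02) were lower. The 3 substrates with the most UMIs, COL1A2, VCAN and COL1A1, had log2 ratios of -0.10, -0.11 and -0.38. Among the inhibitors and activators PCSK6 was higher (1.51), and SPOCK1, PCSK5 and SERPINE2, with the most UMIs, stood at -0.17, -0.96 and 0.10. Of 12 interleukin 1 response genes of fibroblasts, IL6 (27 against 110 UMIs), CXCL8 (10 against 31) and CCL2 (28 against 74) were lower and CXCL2 was higher (306 against 135), with NFKBIA, IL1R1 and SOD2, the 3 of most UMIs, at 0.67, 0.97 and 0.83. Within fibroblast-like nuclei the UMIs of CXCL2 stood the other way (9 against 33), CCL2 had 10 against 34, PTGS2 9 against 33, ICAM1 17 against 36, SOD2 63 against 27 and IL6 1 against 0. NFKBIA had 104 against 63 UMIs there, STC1 102 against 60, IL1R1 178 against 158 and TNFAIP6 30 against 27. Over the 6 list genes with at least 50 UMIs in this class the median log2 ratio was 0.39. Of these 6, 1 was at least 2-fold higher (SOD2) and 1 at least 2-fold lower (ICAM1). The list went both ways over all nuclei and within this class. Of 6 AP-1 genes, FOSB (16 against 2 UMIs) and JUNB (21 against 7) were higher, none was lower, and JUN, FOS and FOSL2 stood at -0.63, 0.68 and 0.95. Of 12 other matrix proteases CTSL (1.21) and DPP4 (1.24) were higher and HTRA3 lower (-1.76), with FAP at 0.20 and HTRA1 at -0.48. Of 9 partners of ADAM10 and ADAM17 none passed 2-fold, with TSPAN5, TSPAN10 and TSPAN15 at -0.25, -0.57 and 0.25. Of 14 shed substrates AREG (17 against 3 UMIs) and BTC (88 against 41) were higher and HBEGF (17 against 42) lower, with CDH2, NOTCH2 and CDH1 at -0.82, -0.01 and 0.64.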

How the data were processed

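Single-nucleus RNA was counted in 1 CFTR knockout and 1 wild type library of newborn piglet olfactory mucosa. The authors deposited raw UMI counts, 1 table for each library with a column per nucleus, and per the labels nuclei of frozen tissue were captured in droplets. Per the submitters' processing notes, the tools were Cell Ranger, R 4.0.2 and Seurat 4.0. No coordinates are printed, since aligner, genome build and annotation were not given in the sources used here. Each table was tied to its sample by the library name in the sample's title, and groups were taken from the genotype. Depth was 16623086 UMIs over 6054 barcodes in the knockout and 18731495 UMIs over 4715 barcodes in the wild type table.

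From these counts, nuclei with under 200 detected genes (0 knockout, 1 wild type) were removed. Scrublet in scanpy 1.11.5 called 1 doublet in each library by its own threshold and so had not worked. The highest scores were removed instead at 0.8% per 1000 nuclei, 293 knockout and 178 wild type nuclei, a treatment chosen after the data were seen. Counts scaled to 10000 per nucleus and log transformed gave 2000 variable genes, without CFTR, mitochondrial transcripts and the member genes, 30 principal components, 15 neighbours and Leiden clusters at resolution 1 (python-igraph 0.11.9). Clusters were named with "-like" from 23 marker lists. A name needed 3 markers, each exceeding the other clusters' median by 1 log2 unit with 20 CPM added, in 5% of the nuclei and at 50% of the highest cluster; this score was set after clusters had been seen. A class was compared only if its clusters' top 10 genes did not favour another type, with at least 50 nuclei in each library.

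Summed counts were expressed as CPM with exact Poisson 95% intervals, ratios with the exact conditional binomial interval, and shares with Clopper-Pearson intervals, also after thinning to 1000 UMIs (1325 knockout and 378 wild type nuclei are shallower). A count of 0 was set to a floor of 3 UMIs for ratios. Background shares use genes with at least 20 UMIs over all nuclei, or 50 within a class, the latter raised from 20 after the values were seen. The code for ratios and their intervals was checked on simulated library sums with known fold changes.

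The members and lists were chosen with earlier results of these data known. All members may be named; full values go to MMP3, the 4 members of each family with most UMIs, those past 2-fold over all nuclei and those led by at least 4 times, and other genes come from the lists, those past 2-fold and the 3 with most UMIs. A result of the inhibitor and activator list is not reported here. Alternatives covered doublets, filters, clustering, scaling (TMM in edgeR 4.0.16, size factors in DESeq2 1.42.0), weighting and thinning.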

Additional observations from a re-analysis of the deposited data

Results flagged for a closer look

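The following differences between classes were not tested. They are members at least 2-fold lower in one class and at least 2-fold higher in another, with both intervals clear of 0; the 2-fold and 50 UMI requirements were added after the values were seen. ADAMTSL1 had a log2 ratio, knockout over wild type, of -3.69 in macrophage-like nuclei (2 against 51 UMIs) and 1.25 in fibroblast-like nuclei (191 against 77 UMIs). The second value turned to -0.083 when each library was clustered separately. In macrophage-like nuclei the immature neuron markers, 10 of 10 listed, summed to 935 CPM in the knockout and 2487 CPM in the wild type library, and ADAMTSL1 stood at 85.8 and 111 CPM in immature neuron-like nuclei; their part in the macrophage value was not tested. TIMP3 had -1.19 in sustentacular-like nuclei (48 against 190 UMIs) and 1.38 in cluster 20 (38 against 22 UMIs). The sustentacular-like class joins clusters that the libraries fill unequally, and TIMP3 had -1.20 (-1.90 to -0.57) in cluster 1 and 0.65 (-0.60 to 2.11) in cluster 3, where it had 25 against 7 UMIs.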

How the results depend on the processing

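No paired analysis was possible because there is 1 library per genotype. The MMP3 log2 ratio, knockout over wild type, stayed below 0 under each of the alternatives run. It was -3.40 over all nuclei and moved to -3.77 with classes weighted equally and -3.04 with nuclei thinned to 1000 UMIs; in fibroblast-like nuclei it was -4.23 and moved to -3.69 where the libraries were clustered separately and -3.50 thinned. The wild type share of fibroblast-like nuclei with MMP3, 17.9% thinned, was 13.7% at a minimum of 500 detected genes, 13.5% at Leiden resolution 2, 13.7% where the libraries were clustered separately and 25.8% not thinned. The count of members 2-fold lower, 3, became 5 under TMM, size factors or classes weighted equally. Under TMM every log2 ratio falls by 0.09, which takes MMP16 and ADAMTS6 past 2-fold. The count 2-fold higher, 4, became 7 with nuclei weighted equally, 2 with classes weighted equally and 2 for members with at least 50 UMIs. Members led by fibroblast-like nuclei, 9, became 14 with separate clustering.

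Of 2268 values of single members under an alternative, 2044 stayed within their counting interval, 207 left it and 17 reversed. A reversal was counted only where the main value was at least 2-fold, so the 207 may include smaller values that changed sign. In sustentacular-like nuclei, ADAMTS9 turned to 0.14 without doublet removal, 0.022 in nuclei with at least 1000 UMIs, 0.11 with member genes used in clustering, 0.034 at resolution 2 and 0.048 thinned. ADAMTS5 turned there to 0.30 without doublet removal, 0.051 with member genes used and 0.017 at resolution 2, and ADAMTSL3 to 0.12, 0.54 and 0.034 under at least 1000 UMIs, member genes used and resolution 2, and 0.54 with separate clustering. ADAMTS3 in immature neuron-like nuclei turned to 0.050 at resolution 2 and 0.088 with separate clustering, where ADAMTSL1 in fibroblast-like nuclei turned to -0.083. With classes weighted equally, over the 11 with at least 50 nuclei in each library and so without the respiratory classes, MMP7 turned to -0.27 and MMP25 to 0.11. The cause was not tested. Depth limits low members most: 17 of 60 had under 100 UMIs, and shares of nuclei with a UMI depend on depth.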
